A study of Mus musculus with 6 samples.

Results

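The genes described here are 42 DNA repair genes, measured among 18193 genes in cells sorted from mouse bone marrow on Affymetrix MOE430_2 arrays. A gene entered through the probe sets (groups of short probes on the array) whose annotation names that gene and no other, and was read from whichever of them was brightest on average across the 6 arrays. All 42 genes had such a probe set. They comprise 9 genes of homologous recombination, 8 of the Fanconi pathway, 3 of mismatch repair, 6 of base excision repair, 8 of nucleotide excision repair, 4 of end joining and 4 kinases of damage signalling. This rule for the probe set reads its brightness but no difference between the groups. The 42 genes themselves were chosen with earlier results of these data known, so the shares over all genes beside them describe and do not test.

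The 3 Ebf2-positive samples and the 3 Ebf2-negative samples came from adult wild-type C57BL/6 mice that received no treatment. Every sample was sorted to lack CD45, TER119 and CD31, the surface proteins of leukocytes, erythroid cells and endothelium, so the groups share that gate and differ in Ebf2, a transcription factor gene. The labels do not say by which reporter or antibody Ebf2 was sorted. RNA came from 1000 or 2000 cells a sample and was amplified before hybridisation. Which samples had which number is not stated, so the input may differ between the groups. Whether the samples of a group came from different mice is not stated, so the p-values below measure the spread between these arrays, which may be technical. Values are log2 intensities, and a difference is the mean of the Ebf2-positive arrays minus the mean of the Ebf2-negative arrays, so 1 unit is a doubling. A gene was called where the Benjamini-Hochberg adjusted p of limma, fitted over all 18193 genes, was under 0.05.

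Cells divide labour among several repair routes. Homologous recombination copies a broken stretch from the sister chromatid and is used mainly once DNA has been replicated, and the Fanconi pathway, named for an inherited bone marrow failure, unhooks crosslinks between the strands and hands the break to it. Mismatch repair corrects copying errors behind the replication fork, base excision repair removes small damaged bases, nucleotide excision repair cuts out bulky lesions such as those made by ultraviolet light, and end joining ligates broken ends without a template. Nucleotide excision repair and end joining are among the routes that also serve cells that do not divide.

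The promoter windows of 4 members that stand at the extremes of the results are shown first: Chek1 and Msh6, among the genes with the largest negative differences, and Ercc1 and Fancc, the only members called higher. Each runs from 250 bases before to 50 bases after the start of the gene in RefSeq (build GRCm38.p6), 5′ to 3′ on the gene's strand, with capitals marking 3 motifs on either strand: an E2F-type word (spelled TTCCCGC in its main form and TTGGCGC in the other form counted), the CCAAT box, and the word TTTGAA. The Chek1 window lies on the minus strand at chr9:36726609-36726908, the Msh6 window on the plus strand at chr17:87974800-87975099, the Ercc1 window on the plus strand at chr7:19344821-19345120 and the Fancc window on the minus strand at chr13:63431696-63431995.
Chek1: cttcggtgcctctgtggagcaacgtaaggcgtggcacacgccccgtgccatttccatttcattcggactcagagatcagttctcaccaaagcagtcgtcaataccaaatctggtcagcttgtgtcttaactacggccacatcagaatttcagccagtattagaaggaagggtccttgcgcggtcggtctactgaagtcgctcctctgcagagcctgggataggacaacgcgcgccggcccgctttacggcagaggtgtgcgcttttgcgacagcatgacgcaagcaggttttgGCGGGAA
Msh6: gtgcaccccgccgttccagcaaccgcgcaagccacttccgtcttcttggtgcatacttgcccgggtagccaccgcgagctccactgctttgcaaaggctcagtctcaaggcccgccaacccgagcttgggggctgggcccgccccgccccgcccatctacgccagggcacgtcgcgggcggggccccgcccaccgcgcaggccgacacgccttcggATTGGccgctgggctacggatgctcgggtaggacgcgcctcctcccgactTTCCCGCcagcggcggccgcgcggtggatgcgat
Ercc1: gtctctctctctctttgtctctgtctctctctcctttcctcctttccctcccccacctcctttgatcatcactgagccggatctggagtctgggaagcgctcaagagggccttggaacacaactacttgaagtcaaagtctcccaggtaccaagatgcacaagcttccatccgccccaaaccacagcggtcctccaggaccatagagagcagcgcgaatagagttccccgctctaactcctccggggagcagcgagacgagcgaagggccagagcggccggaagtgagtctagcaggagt
Fancc: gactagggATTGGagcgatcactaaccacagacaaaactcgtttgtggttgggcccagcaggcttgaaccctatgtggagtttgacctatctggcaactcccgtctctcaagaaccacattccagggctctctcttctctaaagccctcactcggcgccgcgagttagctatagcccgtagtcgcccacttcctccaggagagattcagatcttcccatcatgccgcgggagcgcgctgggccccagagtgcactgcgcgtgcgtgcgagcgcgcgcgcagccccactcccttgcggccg
The Chek1 window holds 1 E2F-type word, at base 294, and the Msh6 window holds 1 at base 267 beside a CCAAT word at base 217. The Fancc window holds a CCAAT word at base 9, and the Ercc1 window has no match to these letters.

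The gate and the arrays set the frame for every value below. Ebf2 itself had 8.13, 8.80 and 8.04 in the Ebf2-positive arrays, against 3.10, 4.02 and 3.84 in the Ebf2-negative arrays. Arrays correlated at 0.919 to 0.924 within the Ebf2-positive group, 0.968 to 0.977 within the Ebf2-negative group and 0.825 to 0.873 between groups, and the median log2 intensity was 3.69 to 3.80 on every array. Of 15 erythroid marker genes measured, 15 were lower in Ebf2-positive cells, with a summed intensity of 758 to 1309, against 19173 to 21592 in Ebf2-negative cells. All 11 stromal fibroblast markers measured were higher, with sums of 56015 to 66240 in Ebf2-positive and 2801 to 6868 in Ebf2-negative cells. Leukocyte markers summed to 3035 to 3888 in the Ebf2-positive arrays and 3705 to 4719 in the Ebf2-negative arrays, with 6 of 15 lower (3 without Ebf2-negative replicate 3 and 10 without Ebf2-positive replicate 2) and 1, Mpo, higher (0 without Ebf2-negative replicate 3). Mpo had 11.1, 11.4 and 11.3 in Ebf2-positive cells, against 9.4, 10.4 and 9.8 in Ebf2-negative cells, and dominates the Ebf2-positive sums. The median difference of the 15 leukocyte markers was -1.78, so the similar sums do not mean a similar leukocyte signal. Over all genes tested, 13.6% were lower and 10.8% higher. The endothelial markers, with 3 of 10 higher, summed to 1493 to 2630 in the Ebf2-positive arrays and 388 to 947 in the Ebf2-negative arrays. The Ebf2-negative cells thus carried high erythroid marker signal although the gate includes TER119. The lowest linear intensity of any probe set was 2.19 to 2.39 across the arrays, so some marker signal alone does not show expression. The part of these cell mixtures in the repair genes' differences was not tested, and in such bulk samples fewer cells of a type and less RNA per cell cannot be told apart. Scaling each array to its poly-A control probe sets, which were brighter in the Ebf2-positive arrays (12.32 ± 0.23) than in the Ebf2-negative arrays (9.84 ± 1.0, SD, n = 3 each), moves every difference by -2.48 and would call 40 members lower and 0 higher. The same scaling would call 15596 of all 18193 genes lower and 227 higher, so lower calls under it are not particular to these genes. The directions below are therefore relative to the deposited normalisation.

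The DNA repair genes that were called were mainly lower in Ebf2-positive cells. Of the 42 members, 21 were lower, 2 were higher and 19 were not called, where 13.6% of all genes tested were lower and 10.8% were higher (24.4% called in all). The median difference of the members was -1.50, against 0.07 over all genes tested. All 3 Ebf2-positive arrays lay below all 3 Ebf2-negative arrays for 28 members (21.2% of all genes) and above them for 2 members (21.8% of all genes). The members' probe sets are brighter than most, with 35 of 42 at or above the median gene, and among the 9097 genes at or above it 23.4% were lower and 17.1% higher (40.6% called in all). In that brighter set the Ebf2-positive arrays lay wholly below for 35% of genes and wholly above for 23.2%. The counts by pathway below stand beside these shares and are coarse, with few genes in each pathway. A difference of at least 4-fold was reached by 15 of the 21 lower members. Among them, Exo1 and Fancd2 have every Ebf2-positive value below the probe set median of its array, so the size of their differences is uncertain. With any single array left out, 15 to 20 members were lower, and 14 of the 21 kept their call without each of the 6 arrays in turn. Both higher members also kept it. Over all genes tested, 1396 to 2471 were lower with 1 array left out, against 2469 with all 6.

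**Figure D1:**
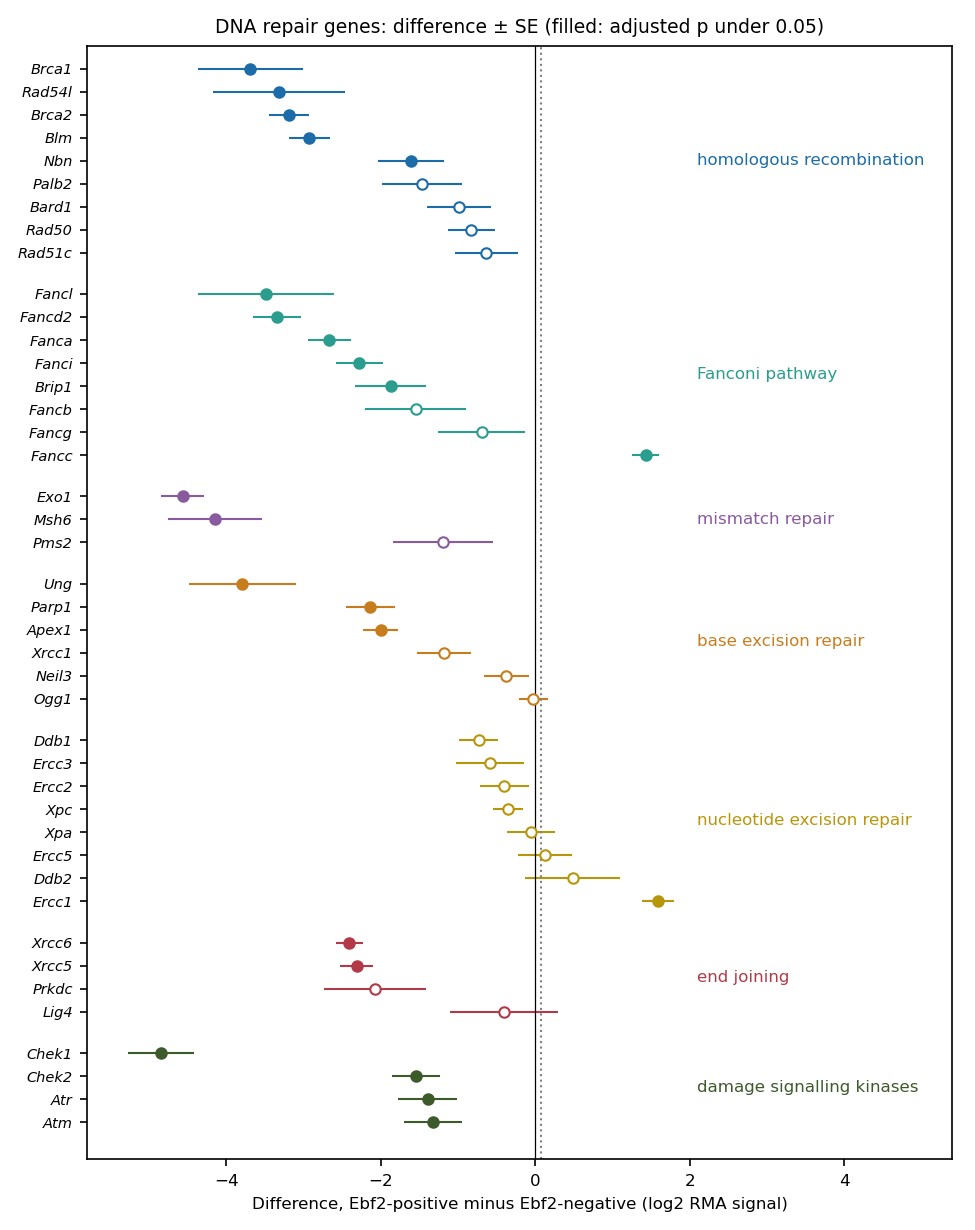
Difference in log2 intensity (Ebf2-positive minus Ebf2-negative) of each of the 42 DNA repair genes, ordered within repair pathways, with bars for the standard error of the limma fit, filled points for called genes and a dotted line at the median of all genes tested, 0.07. The negative differences reach -4.85 for Chek1 and -4.56 for Exo1, both dim in Ebf2-positive cells, and the only called positive ones are Ercc1 at 1.59 and Fancc at 1.43, whose sign turns when arrays are scaled to the poly-A controls.

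Homologous recombination genes were lower or not called, with 5 of 9 lower, 0 higher and a median difference of -1.61. The 9 genes averaged 5.23, 4.90 and 5.59 in the Ebf2-positive arrays, against 7.76, 7.12 and 7.05 in the Ebf2-negative arrays. Brca1, the ubiquitin ligase that starts the processing of breaks for recombination, had 5.92, 3.75 and 5.87 in Ebf2-positive cells, against 9.73, 8.53 and 8.34 in Ebf2-negative cells. Its groups did not overlap, and the difference was -3.69 (SE 0.68, adjusted p = 0.0102), although 1 of the Ebf2-positive arrays was well below the other 2. Brca2, which acts with Palb2 in recombination and protects stalled replication forks, had 4.88, 5.61 and 5.02 in Ebf2-positive cells, against 8.62, 8.25 and 8.21 in Ebf2-negative cells. These 6 values fell into compact groups far apart, with a difference of -3.19 (SE 0.26, adjusted p = 0.000692).

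Blm, the helicase that dissolves recombination intermediates, had 5.23, 5.52 and 5.98 in Ebf2-positive cells, against 8.79, 8.32 and 8.39 in Ebf2-negative cells (difference -2.93, SE 0.27, adjusted p = 0.000923). Rad54l, a motor protein of the recombination machinery, had 3.44, 4.45 and 7.0 in Ebf2-positive cells, against 8.32, 8.51 and 8.0 in Ebf2-negative cells. The Ebf2-positive arrays were spread widely here (SD 1.83, against 0.25), and the difference of -3.31 (adjusted p = 0.0338) lost its call without Ebf2-positive replicate 1 (0.0682) or 2 (0.0848) or any single Ebf2-negative replicate (0.0907 to 0.102). Nbn, a subunit of the complex that senses double-strand breaks, averaged 5.98 ± 0.86 in Ebf2-positive cells and 7.59 ± 0.15 in Ebf2-negative cells (SD, n = 3 each). Its difference of -1.61 (adjusted p = 0.0384) lost its call without Ebf2-positive replicate 2 (0.0807) or 3 (0.0954) or any single Ebf2-negative replicate (0.0990 to 0.119), after a further quantile normalisation (0.0824) and with arrays centred on their 75th percentile (0.0561).

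The remaining recombination genes were not called. Rad50, Nbn's partner in the same complex, had 6.91, 7.71 and 6.70 in Ebf2-positive cells, against 8.04, 8.02 and 7.74 in Ebf2-negative cells, with an adjusted p of 0.0985 that became 0.0170 without Ebf2-positive replicate 2. Rad51c, which is also a Fanconi anaemia gene, had overlapping groups, with 5.76, 4.89 and 6.34 in Ebf2-positive cells and 6.73, 6.06 and 6.11 in Ebf2-negative cells. Palb2, which bridges Brca1 and Brca2, had a difference of -1.46 (adjusted p = 0.0933, and 0.0486 among the brighter genes alone), and Bard1, the partner of Brca1, one of -0.99 (adjusted p = 0.139). Palb2 entered the brighter set only through its Ebf2-negative values and its difference is unchanged there, so the lower adjusted p adds no support. The count of lower recombination genes was 3 when any single Ebf2-negative replicate was left out.

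In the Fanconi pathway 5 of 8 genes were lower, 1 was higher and the median difference was -2.07. Fancd2, which is ubiquitinated at a crosslink and recruits the nucleases, had 3.74, 3.59 and 3.01 in Ebf2-positive cells, against 7.28, 6.49 and 6.59 in Ebf2-negative cells. Its difference was -3.34 (SE 0.31, adjusted p = 0.000988) and the groups lay far apart. The Ebf2-positive values are below the median of all probe sets on each of those arrays, so no fold is given. Fanci, the other protein of that ubiquitinated pair, had 4.89, 4.27 and 5.31 in Ebf2-positive cells, against 6.86, 7.13 and 7.29 in Ebf2-negative cells (difference -2.28, adjusted p = 0.00342). Fanca, a subunit of the core complex that attaches the ubiquitin, had 5.43, 4.93 and 4.48 in Ebf2-positive cells, against 7.63, 7.47 and 7.73 in Ebf2-negative cells (difference -2.67, SE 0.28, adjusted p = 0.00152).

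Fancl, the ligase of the core complex, was uneven in Ebf2-positive cells, with 3.05, 6.70 and 4.0, against 8.26, 7.92 and 8.03 in Ebf2-negative cells. Its difference of -3.49 (adjusted p = 0.0312) lost its call without Ebf2-positive replicate 1 (0.0648) or 3 (0.0807) or any single Ebf2-negative replicate (0.0807 to 0.101), and with its probe sets averaged (0.137). Brip1, a helicase that binds Brca1, was dim, averaging 2.42 ± 0.34 in Ebf2-positive cells and 4.30 ± 0.89 in Ebf2-negative cells (SD, n = 3 each). The difference of -1.87 (adjusted p = 0.0291) lost its call without Ebf2-positive replicate 1 (0.0721) or 3 (0.0757) or Ebf2-negative replicate 2 (0.0687). With any 1 of these 3 arrays left out, 3 Fanconi genes were lower in place of 5.

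Fancc, another core complex subunit, went the other way, with 6.44, 6.41 and 6.32 in Ebf2-positive cells, against 4.84, 4.93 and 5.11 in Ebf2-negative cells. The difference was 1.43 (SE 0.18, adjusted p = 0.00270) and the groups did not overlap. It rests on 1 of the gene's 3 probe sets: the others gave -0.25 (adjusted p = 0.846) and 0.19 (adjusted p = 0.805), and their mean with the first gave 0.46 (adjusted p = 0.336). Fancb, an X-linked core complex gene, had 2.89, 5.28 and 5.23 in Ebf2-positive cells and 6.23, 5.66 and 6.16 in Ebf2-negative cells, and was not called (adjusted p = 0.146, and 0.0238 with its probe sets averaged). Fancg overlapped between groups, with 4.71, 3.74 and 5.97 in Ebf2-positive cells and 5.32, 5.97 and 5.22 in Ebf2-negative cells.

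Mismatch repair is represented by 3 members, of which 2 were lower, with a median difference of -4.15. Exo1, the exonuclease that removes the strand carrying the error, had 2.65, 3.27 and 3.58 in Ebf2-positive cells, against 7.78, 7.58 and 7.84 in Ebf2-negative cells. The groups lay far apart (difference -4.56, SE 0.28, adjusted p = 0.000354), but the Ebf2-positive values are below the median of all probe sets on each of those arrays, so no fold is given for this gene. Msh6, which recognises single mismatched bases, had 6.85, 4.45 and 5.0 in Ebf2-positive cells, against 9.92, 9.36 and 9.48 in Ebf2-negative cells, 17.8-fold lower (difference -4.15, SE 0.61, adjusted p = 0.00463). Pms2, a nuclease subunit of the later step, overlapped, with 6.98, 5.49 and 4.30 in Ebf2-positive cells and 7.18, 6.69 and 6.48 in Ebf2-negative cells. It was not called (adjusted p = 0.246) unless Ebf2-positive replicate 1 was left out (0.0330) or its probe sets were averaged (0.0234). With each gene's probe sets averaged, the median of the 3 genes was -2.0.

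Base excision repair split evenly, with 3 of 6 genes lower, 0 higher and a median difference of -1.59. Ung, which removes uracil from DNA, had 5.0, 6.70 and 4.84 in Ebf2-positive cells, against 10.51, 8.63 and 8.77 in Ebf2-negative cells. The groups were apart despite 1 high array in each, with a 13.8-fold lower level (difference -3.79, SE 0.69, adjusted p = 0.00968). Parp1, the sensor of single-strand breaks, had 7.82, 7.13 and 6.82 in Ebf2-positive cells, against 9.67, 9.07 and 9.43 in Ebf2-negative cells (difference -2.13, adjusted p = 0.00480). Apex1, the endonuclease that cuts where a base has been removed, had 9.24, 8.63 and 9.01 in Ebf2-positive cells, against 10.79, 10.97 and 11.12 in Ebf2-negative cells. Its difference was -2.0 (SE 0.23, adjusted p = 0.00199), so it remained well above the array median in both groups.

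Xrcc1, the scaffold on which the gap is closed, had 5.58, 6.67 and 6.58 in Ebf2-positive cells, against 7.75, 7.44 and 7.18 in Ebf2-negative cells. Its difference of -1.18 just missed the threshold (adjusted p = 0.0517) and passed without Ebf2-positive replicate 2 (0.0470) and with dim genes filtered out (0.0359 and 0.0399 under 2 filters). It also passed in the fit that averages probe sets by gene (0.0428). Xrcc1 has no further probe set, so its own values were unchanged there, as they were under the filters. Ogg1, which removes oxidised guanine, had 4.95, 5.14 and 5.24 in Ebf2-positive cells and 5.14, 5.01 and 5.25 in Ebf2-negative cells. These values overlapped almost completely, with a difference of -0.03 (adjusted p = 0.933), and Neil3, another glycosylase, had a difference of -0.38 (adjusted p = 0.411).

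End joining had 2 of 4 genes lower, 0 higher and a median difference of -2.20. The lower genes are Xrcc6 and Xrcc5, which encode the subunits of Ku, the ring that binds broken ends. Xrcc6 had 6.49, 6.46 and 6.46 in Ebf2-positive cells, against 8.77, 8.89 and 8.97 in Ebf2-negative cells (difference -2.41, SE 0.17, adjusted p = 0.000475). Xrcc5 had 4.75, 4.77 and 4.37 in Ebf2-positive cells, against 7.12, 6.96 and 6.75 in Ebf2-negative cells (difference -2.31, SE 0.21, adjusted p = 0.000945). Both Ku genes were tight among replicates and were 5.30-fold and 4.97-fold lower.

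Prkdc, the kinase that Ku recruits, had 5.30, 6.86 and 4.11 in Ebf2-positive cells, against 7.47, 7.26 and 7.77 in Ebf2-negative cells. The groups did not overlap, but the wide Ebf2-positive spread left the difference of -2.08 uncalled (adjusted p = 0.0658), and it passed without Ebf2-positive replicate 2 (0.00745), with dim genes filtered out (0.0276 and 0.0373) and with array weights (0.0342). The filters leave the Prkdc values themselves unchanged. Lig4, the ligase of the route, overlapped, with 4.11, 5.32 and 3.19 in Ebf2-positive cells and 5.82, 4.04 and 3.96 in Ebf2-negative cells (adjusted p = 0.722).

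All 4 damage signalling kinases were lower, with very unequal sizes. Chek1, the checkpoint kinase that restrains cells with stalled replication, had 3.36, 4.97 and 3.85 in Ebf2-positive cells, against 9.21, 8.77 and 8.76 in Ebf2-negative cells. The groups lay far apart (difference -4.85, SE 0.43, adjusted p = 0.000836), but the Ebf2-positive values reach down to the median of all probe sets on their arrays, and no fold is given. Chek2, which acts downstream of double-strand breaks, had 7.20, 6.30 and 6.22 in Ebf2-positive cells, against 7.99, 7.97 and 8.39 in Ebf2-negative cells. Its difference was -1.54 (adjusted p = 0.0148), lost without Ebf2-negative replicate 3 (0.0633).

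Atr and Atm act upstream of the checkpoint kinases. Atr, which responds to single-stranded DNA, had 5.99, 6.28 and 7.35 in Ebf2-positive cells, against 8.17, 7.85 and 7.77 in Ebf2-negative cells (difference -1.39, adjusted p = 0.0396). Atm, which responds to double-strand breaks, had 6.77, 6.78 and 6.51 in Ebf2-positive cells, against 8.82, 7.41 and 7.80 in Ebf2-negative cells (difference -1.32, adjusted p = 0.0471). Neither gene's groups overlapped, but Atr lost its call when any array except Ebf2-positive replicate 3 was left out (0.0920 to 0.128), and Atm when any except Ebf2-negative replicate 2 was (0.0627 to 0.109). The count of lower kinases was 1 without Ebf2-negative replicate 3, and 2 without Ebf2-positive replicate 1 or 2 or Ebf2-negative replicate 1. It was also 2 after a further quantile normalisation, where Atr (0.0609) and Atm (0.0780) were not called. Atm also missed the threshold with the 75th percentile, another variance model, array weights and probe sets ending in _x_at, _s_at or _a_at left out (0.0526 to 0.0832).

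**Figure D2:**
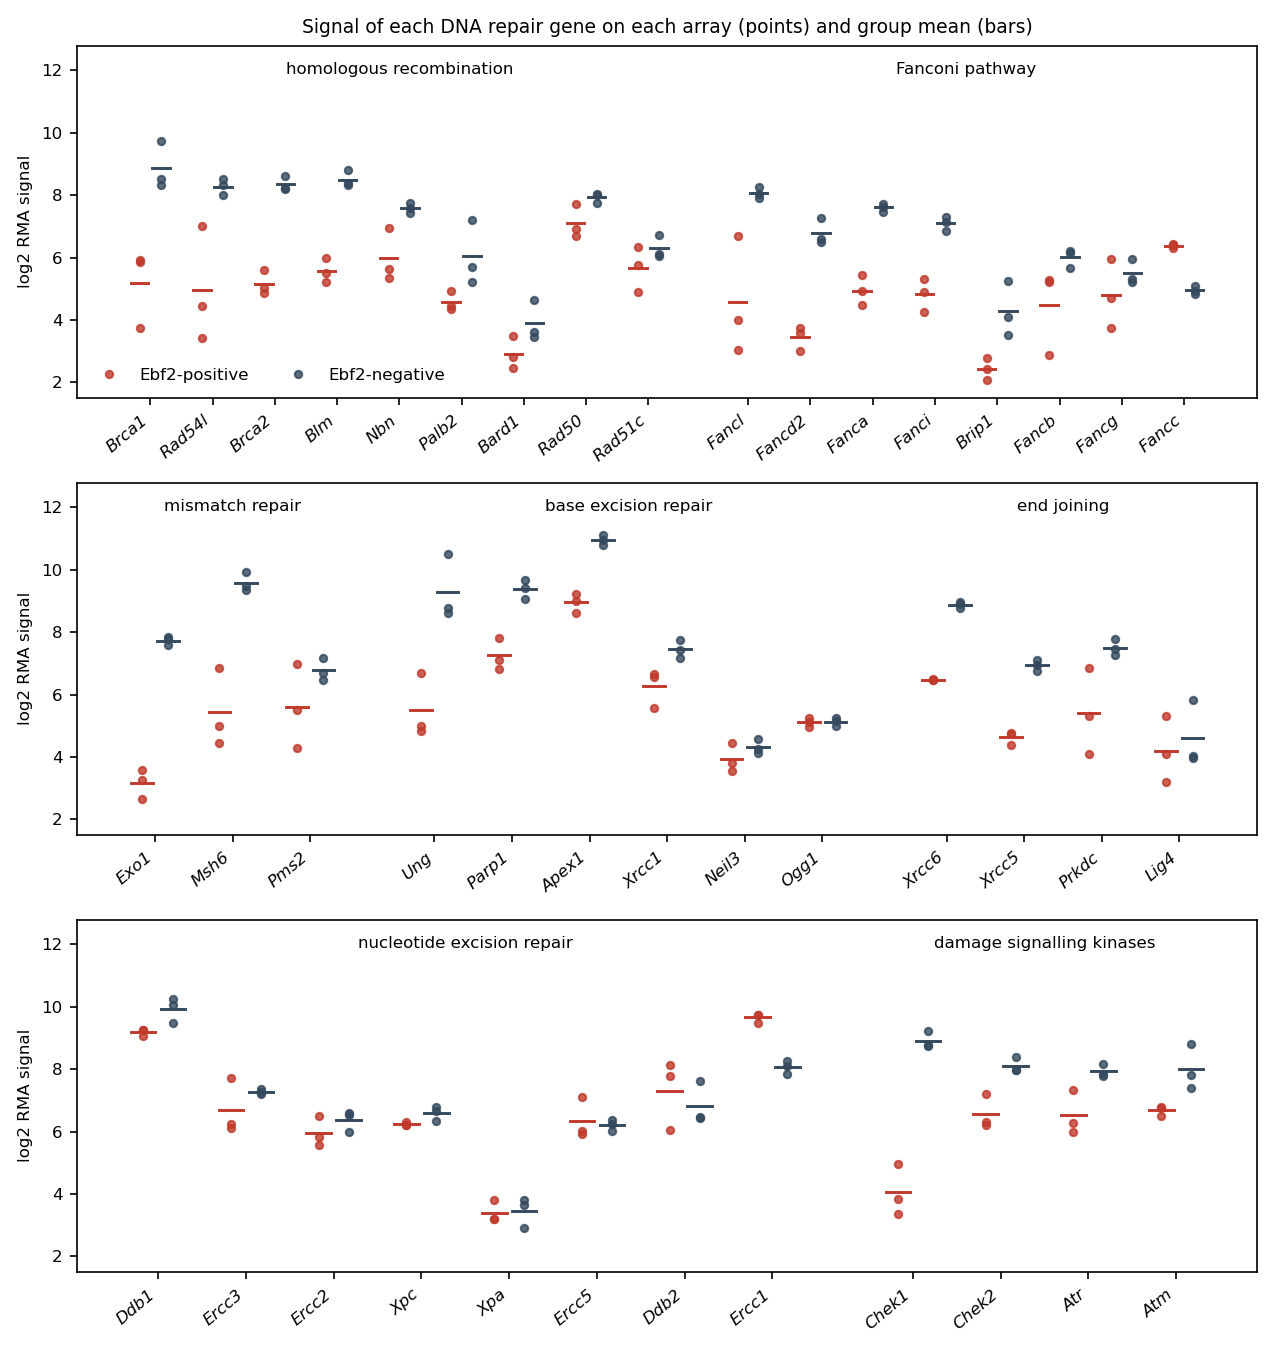
Log2 intensity of all 42 DNA repair genes in each of the 3 Ebf2-positive arrays and each of the 3 Ebf2-negative arrays, 1 point an array, with a line at each group's mean. Xrcc6 lies at 6.46 to 6.49 in Ebf2-positive cells and 8.77 to 8.97 in Ebf2-negative cells, while Ercc1 lies at 9.49 to 9.75 in Ebf2-positive cells and 7.84 to 8.28 in Ebf2-negative cells, an order that turns under scaling to the poly-A controls.

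In nucleotide excision repair 0 of 8 genes were lower by limma's adjusted p, 1 was higher and the median difference was -0.20. Of all genes tested 13.6% were lower, and 23.4% of those at or above the median gene. With only 8 genes, a count of 0 is not far from these shares. At an unadjusted p under 0.05 the count of lower genes was 1. The 8 genes averaged 6.96, 6.53 and 7.07 in the Ebf2-positive arrays and 6.88, 6.80 and 6.86 in the Ebf2-negative arrays, and the groups overlapped for 5 of them, where the values of the groups overlapped for 57% of all genes tested and 10.8% were higher. Ercc1, a subunit of the nuclease that cuts on the 5′ side of a lesion, had 9.75, 9.75 and 9.49 in Ebf2-positive cells, against 7.84, 8.28 and 8.09 in Ebf2-negative cells. It was 3.02-fold higher (difference 1.59, SE 0.21, adjusted p = 0.00299), and a second probe set of the gene was higher as well (1.30, adjusted p = 0.0112).

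Ddb1, part of the complex that finds ultraviolet lesions in chromatin, had 9.24, 9.07 and 9.27 in Ebf2-positive cells, against 9.48, 10.25 and 10.05 in Ebf2-negative cells. The groups did not overlap, but the difference of -0.73 was not called (adjusted p = 0.0831) unless Ebf2-negative replicate 1 was left out (0.0410). Its partner Ddb2 overlapped, with 7.79, 6.04 and 8.12 in Ebf2-positive cells and 7.61, 6.45 and 6.43 in Ebf2-negative cells (difference 0.49, adjusted p = 0.616). Xpc, the damage sensor for the whole genome, averaged 6.24 ± 0.06 in Ebf2-positive cells and 6.60 ± 0.24 in Ebf2-negative cells (SD, n = 3 each; adjusted p = 0.265). The helicase genes of the repair complex, Ercc2 and Ercc3, had differences of -0.40 (adjusted p = 0.417) and -0.59 (adjusted p = 0.396), and Ercc3 was called lower without Ebf2-positive replicate 3 (0.0157). The nuclease gene Ercc5 and the scaffold gene Xpa differed by 0.13 (adjusted p = 0.824) and -0.05 (adjusted p = 0.923).

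Set side by side, the 34 members outside nucleotide excision repair had 21 lower, 1 higher and a median difference of -1.94. Of all genes tested, 13.6% were lower and 10.8% higher. The difference between nucleotide excision repair and the other pathways was not itself tested. Among the 21 lower members, Ebf2-positive replicates 1, 2 and 3 were the lowest of their group for 7, 5 and 9 genes, so no single array of that group was always the dimmest. In the other group, Ebf2-negative replicate 1 was the brightest for 13 of the 21 genes, replicate 3 for 7 and replicate 2 for 1. The spread was wider among the Ebf2-positive arrays, where the median SD of the 42 members was 0.52, against 0.26 among the Ebf2-negative arrays. Over all genes these medians were 0.38 in the Ebf2-positive and 0.24 in the Ebf2-negative arrays.

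Further probe sets of the same genes give a second reading on the same RNA. In a fit over all 45037 probe sets singly, where 8.76% were lower and 6.39% higher, the chosen probe sets of 17 of the 21 lower members were lower, without those of Atm (adjusted p = 0.0675), Atr (0.0577), Nbn (0.0568) and Rad54l (0.0528). Among the 27 other probe sets of the 21 genes, 13 were lower and 0 higher, and 8 of the 13 genes with such a probe set had at least 1 that was lower. For Rad54l the differences of the called ones were -3.70 and -4.35, and for Parp1 they were -2.87 and -3.28. For Chek1 they were -4.61 and -3.25, for Brca1 -2.20 and -1.88, and for Atm -2.42. Fancd2 had -2.07 from its called second probe set, against -3.34 on the chosen one, and Exo1 had -1.32, against -4.56, so the size of the Exo1 difference depends on the probe set read. Apex1, whose chosen probe set is of the kind that may cross-hybridise, had -2.26 from another of that kind and -2.34 from one that is not. Those of the 27 that were not called were dim, with means over the 6 arrays of at most 4.38, but those called lower were as dim in part, with means down to 3.48. Both further probe sets of Atr pointed upward without a call (1.12 and 0.75), and with its probe sets averaged Atr differed by 0.16.

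Of 87 listed repair genes that are not members, 75 were measured, and 34 were lower, 1 was higher and 40 were not called, with a median difference of -1.18. Over all genes tested 13.6% were lower and 10.8% higher, and among those at or above the median gene 23.4% and 17.1%. Leaving out Ebf2-negative replicate 1 gave 20 lower genes among the 75, and leaving out replicate 3 of that group gave 21. Lower calls over all genes fell as well, from 2469 to 1586 and 1396. In homologous recombination 11 of 20 were lower (7 without Ebf2-negative replicate 1 or 3), among them Rad51ap1, a DNA-binding recombination factor, at -4.78 (adjusted p = 0.00531), Rpa2, a subunit of the protein that coats single-stranded DNA, at -3.61 (0.00330), and Wrn, a helicase related to Blm, at -2.81 (0.00794). Dna2, a nuclease that trims ends, had -5.12 (adjusted p = 0.0228) but lost its call without any single Ebf2-negative replicate or Ebf2-positive replicate 3 (0.0593 to 0.0819). In the Fanconi pathway 3 of 6 were lower: Usp1, which removes the ubiquitin from Fancd2, at -2.35 (0.00156), Fance at -1.68 (0.0102) and the conjugating enzyme Ube2t at -2.55 (0.0124, and 0.0512 without Ebf2-negative replicate 1).

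All 3 further mismatch repair genes measured were lower (1 when any single Ebf2-negative replicate was left out), led by Pms1 at -1.54 and Mlh3 at -1.50, both of which lost the call when any single Ebf2-negative replicate was left out (adjusted p of 0.0510 to 0.149). Pms1 also lost it without Ebf2-positive replicate 1 (0.0613), and Mlh3 without Ebf2-positive replicate 3 (0.0521). Msh3 held at -1.15 (adjusted p = 0.00953). In base excision repair 5 of 12 were lower (3 without Ebf2-negative replicate 1 or 3), with Fen1, the flap nuclease also used in replication, at -2.68 (adjusted p = 0.000393) and the ligase gene Lig3 at -1.83 (0.00495). Neil1, a glycosylase and the only one of the 75 called higher, was named after its value was seen, at 1.49 (adjusted p = 0.0103). In nucleotide excision repair 4 of 14 were lower, and the leading ones were Cdk7 at -3.37 (adjusted p = 0.000696) and Ccnh at -1.65 (0.00355), kinase and cyclin of a complex that also serves transcription and the cell cycle. The other 2, Gtf2h4 at -1.49 and Ercc8 at -1.22, lost their call when any single Ebf2-negative replicate was left out (adjusted p of 0.0623 to 0.107), and the count was then 2. The median difference of these 14 genes was -0.93, against -0.20 for the members of that pathway. In end joining 0 of 6 were called by limma, with 1 at an unadjusted p under 0.05, and Paxx, the brightest probe set there, differed by 0.26 (adjusted p = 0.628). Their median difference was -0.30, against -2.20 for the end joining members. Of all genes tested 13.6% were lower, and 23.4% of those at or above the median gene. The 4 of 14 in nucleotide excision repair and the 0 of 6 in end joining are not far from these shares.

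In damage signalling 8 of 14 further genes were lower (5 when any single Ebf2-negative replicate was left out), with a median difference of -2.12. They include Clspn, which brings Chek1 to Atr, at -4.68 (adjusted p = 0.000524), Topbp1, an activator of Atr, at -3.08 (0.000573), and Rad17, which loads the checkpoint clamp, at -3.16 (0.00834). Hus1, a subunit of that clamp, had -3.70 (adjusted p = 0.0271) and lost its call without any single Ebf2-negative replicate or Ebf2-positive replicate 2 (0.0629 to 0.0968). Of 14 genes induced by p53, 1 was lower (2 without Ebf2-positive replicate 3) and 1 higher (3 without Ebf2-positive replicate 1), with a median difference of -0.15. Over all genes tested 13.6% were lower and 10.8% higher, so the p53 counts are near those shares. Cdkn1a, the cell cycle inhibitor, averaged 8.19 ± 0.41 in Ebf2-positive cells and 6.37 ± 0.49 in Ebf2-negative cells (SD, n = 3 each; difference 1.82, adjusted p = 0.0102). Zmat3 had -1.26 (adjusted p = 0.0129, and 0.0529 without Ebf2-negative replicate 3).

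**Figure D3:**
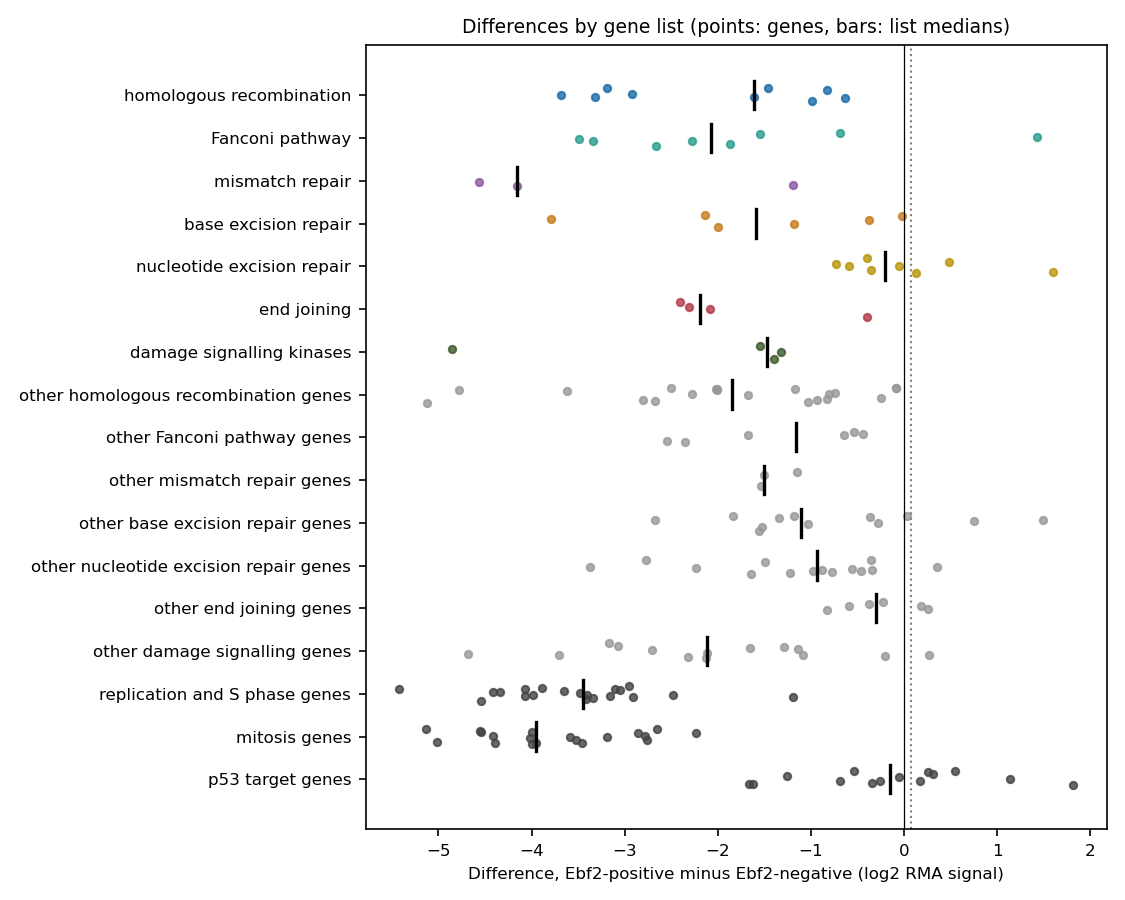
Difference in log2 intensity (Ebf2-positive minus Ebf2-negative) of each measured gene (points) in the members' pathways (coloured), the other listed repair genes (light grey) and the replication, mitosis and p53 lists (dark grey), with a bar at each list's median and a dotted line at the median of all genes tested, 0.07. The median of the nucleotide excision repair members lies at -0.20, against -1.61 in homologous recombination, -3.45 in the replication list and -3.95 in the mitosis list, before any scaling to the poly-A controls.

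Cell division genes were lower as well, beside 13.6% of all genes tested. Of 20 replication and S phase genes 18 were lower and 0 higher, with a median difference of -3.45 and a summed intensity of 2378 to 3940 in the Ebf2-positive arrays, against 27529 to 28663 in the Ebf2-negative arrays. All 19 mitosis genes measured were lower, with a median difference of -3.95 and sums of 582 to 1613 in Ebf2-positive cells, against 10960 to 11744 in Ebf2-negative cells. The mitosis genes averaged 5.25, 4.16 and 5.18 in the Ebf2-positive arrays, lowest in replicate 2, where homologous recombination genes were also lowest of that group but Fanconi genes were not (4.20, 4.71 and 4.55). These lists, like the erythroid markers, are far lower in Ebf2-positive cells, and their part in the repair genes' differences was not tested.

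Promoter windows were found in RefSeq for 34 of the 42 members, and an E2F-type word, the kind of sequence bound by the factors that switch on genes at the entry into S phase, occurred in 15 of them (44.1%). The share was 10.3% over the 14452 tested genes with a window of the same length and 16.8% over those of them called lower. Among members, 9 of 18 called lower held the word (50%), as did 6 of 16 not called lower (37.5%), so it was found on both sides of the call. CCAAT occurred in 20 of 34 (58.8%), against 38.2% over all tested genes, and TTTGAA in 2 of 34 (5.88%), against 13.3%. The word in Chek1 lies 43 bases past the start of the gene and that in Msh6 16 bases past it. Such matches describe letters in a window and show no binding.

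**Figure D4:**
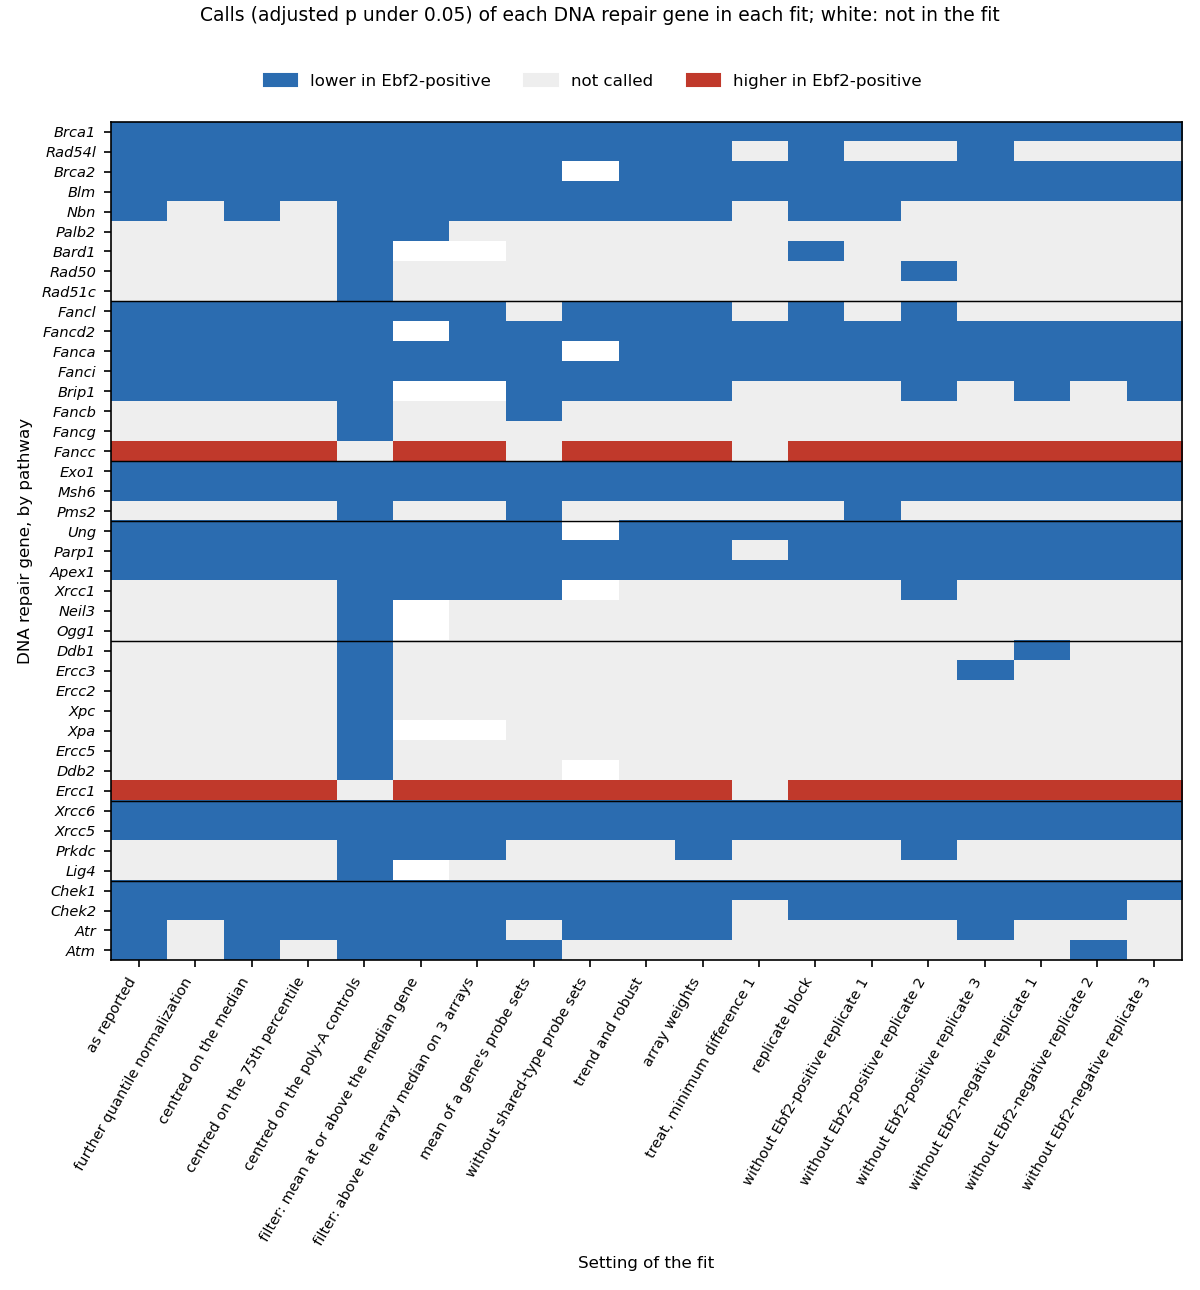
Calls of each of the 42 DNA repair genes (rows, by pathway) under each way of processing the values and with each array left out (columns), in blue where lower in Ebf2-positive cells, red where higher, grey where not called and white where the gene was not in the fit. Counts of lower genes with 1 array left out run between 15 and 20, against 21 as reported, and scaling to the poly-A controls gives 40 lower and 0 higher, with Ercc1 and Fancc turned to negative differences. That scaling calls 15596 of all 18193 genes lower and 227 higher.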

How the data were processed

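RNA was amplified in 2 rounds and hybridised to 1 array a sample, per the series design text. The authors deposited an intensity for each probe set on each array, computed by RMA (background correction, quantile normalisation between arrays and probe summary), per the submitters' processing notes. The deposited intensity values are linear, so log2 was taken here. Quantile normalisation hides differences in total RNA, and amplification adds spread to dim genes. The array annotation names exactly 1 gene for 34945 of 45037 non-control probe sets, 932 name several and 9160 none, and the RefSeq table for GRCm38.p6 holds 34741 of the 34945.

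The groups of 3 went into limma 3.58.1 (lmFit, eBayes, two-sided; R 4.3.3), with Benjamini-Hochberg adjustment over 18193 genes, after testing on simulated data. The exact permutation test of 3 against 3 cannot go below 0.1 and was not used. The number of arrays limits the precision. Members and gene lists were chosen with earlier results of these data known, so no p was adjusted over a list. Arrays were shown for up to 4 called members of a pathway with the largest differences, or the 2 brightest members where fewer were called, and for up to 2 bright uncalled members, besides Fancc. Of other lists, up to 4 called members with the largest differences were named where they help the account. Alternatives were other scalings, filters, probe set rules, variance models, array weights, a replicate block, a minimum difference of 1 (treat) and leaving out each array. Figures were drawn with matplotlib 3.10.9.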

Additional observations from a re-analysis of the deposited data

How the results depend on the processing

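The 21 lower members became 40 when arrays were centred on the poly-A controls and 13 when a difference of more than 1 was required (treat), and the 2 higher ones became 0, 0 and, with probe sets averaged by gene, 1. Poly-A centring gave medians of -3.98 (members), -4.09 (homologous recombination), -4.55 (Fanconi), -6.63 (mismatch), -4.07 (base excision), -2.68 (nucleotide excision), -4.67 (end joining) and -3.95 (kinases), 9, 6, 7 and 4 lower genes in homologous recombination, base excision, nucleotide excision and end joining, 74 lower and 0 higher other repair genes, and differences of -1.05 for Fancc, -0.89 for Ercc1, -2.35 for Ercc5 and -1.99 for Ddb2. These shifts follow from its construction. Filters on dim genes drop members and leave the differences of the rest unchanged. The cause of the remaining changes was not tested. Averaging probe sets by gene gave medians of -1.27 (members), -1.31 (Fanconi), -2.0 (mismatch), 0.031 (nucleotide excision), -1.69 (end joining) and -1.71 (kinases), and differences of 0.06 for Neil3, 0.026 for Xpa, 0.035 for Ercc2 and 0.16 for Atr. Under treat 3 recombination genes, 3 Fanconi genes, 1 kinase and 11 other repair genes were lower, and 0 other repair genes were higher. Of all 18193 genes, 658 were lower and 775 higher under treat. Either filter on dim genes gave -2.27 for the 8 recombination genes left. The filter on the mean gave -2.07 for the 4 base excision genes left. It had 3 lower among the 6 Fanconi genes left, because Fancd2 and Brip1 dropped out. Array weights gave -1.35 for the members. Without probe sets whose names end in _x_at, _s_at or _a_at, Xpa had 0.10 and base excision -1.36. That median covers 4 genes, because Ung and Xrcc1 have no other probe set and left the fit. Centring on the 75th percentile, which moves the median of all genes by 0.12, gave 0.093 for Ogg1 and 0.068 for Xpa. A further quantile normalisation gave 2 lower kinases.

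With 1 array left out, lower calls ran from 15 to 20 for members, 3 to 4 in recombination, 3 to 5 in the Fanconi pathway, 2 to 3 in mismatch repair, 3 to 4 in base excision, 0 to 1 in nucleotide excision (1 without Ebf2-positive replicate 3 or Ebf2-negative replicate 1), 2 to 3 in end joining, 1 to 3 among kinases and 20 to 37 among other repair genes. The other repair genes called higher numbered 1 to 2 (2 without Ebf2-positive replicate 1). Over all genes lower calls ran from 1396 to 2471, and were fewest where an Ebf2-negative array was left out. Medians ran from -1.63 to -1.36 (members), -2.10 to -1.36 (recombination), -2.32 to -1.83 (Fanconi) and -0.32 to -0.10 (nucleotide excision). Differences changed sign for Ogg1 (-0.092 to 0.052), Xpa (-0.32 to 0.13), Ercc5 (-0.25 to 0.34) and Lig4 (-0.96 to 0.20). Samples with the same replicate number correlated at 0.058, 0.106 and 0.029 in their deviations from the group means. Samples with different numbers correlated at -0.100 to 0.042. The labels do not say that the numbers pair the samples. Deviations within a group of 3 cancel out, so these correlations cannot decide whether they do. With the replicate number as a block, 19 members were lower and 2 higher, and 2 kinases were lower, with Bard1 gained (0.0446) and Brip1 (0.0520), Atm (0.0532) and Atr (0.0683) lost. Under poly-A centring 15596 of all 18193 genes were lower and 227 higher. Of all calls there 1.43% were higher, against 44.3% as reported.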
